A study of Mus musculus with 28 samples.

Results

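Sox and Id genes set whether a retinal progenitor stays a progenitor or becomes glia or a neuron. Here 9 of them were followed in single Müller glial cells (MGCs, the radial glia that span the retina) from mice with inherited photoreceptor death and from wild-type (WT) mice. They were 9 of the 18194 genes measured. All 9 were chosen by name. The glial members were Sox2, Sox8, Sox9, Id1, Id2, Id3 and Id4, and the neuronal differentiation members were Sox4 and Sox11. Retinas of several litters were dissociated, MGCs were picked by shape, and the cDNA of every cell was amplified by polymerase chain reaction and hybridized to 1 Affymetrix Mouse Genome array, giving 28 arrays.

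The cells fell into 6 conditions. Adult WT cells (n = 5) came from C57/BL6 mice labelled as older than 25 weeks, although the text of the study gives a younger minimum age. They were profiled for an earlier study of the same laboratory, so study and condition cannot be told apart in any comparison with them. Rhod-ko mice, labelled with the same C57/BL6 strain, lack the rod-specific rhodopsin gene, and 5 cells were taken at 8 weeks and 5 at 25 weeks. The rd1 mice, of the FVB strain, have a mutated β-subunit gene (Pde6b) of the rod cyclic GMP phosphodiesterase, and cells were taken on postnatal day 13 (P13, n = 5) and at 5 weeks (5 arrays). The congenic FVB cells (FVB.129P2-Pde6b+Tyrc-ch/AntJ, P13, n = 3) were the WT cells for rd1. The early age of each mutant lies in its period of rod death and the late age in its period of cone death. Adult WT and rd1 at 5 weeks differed in strain and age as well as in genotype, and adult WT and Rhod-ko at 8 weeks differed in age by their labels, so these cannot be told apart.

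Each sample was 1 cell and no animal was named, so a condition was treated as 1 sample of several cells and no test was run between conditions. Values are array signals scaled by the MAS5 software to a common trimmed mean of 500. A gene counted as on where its signal reached 2000. Conditions were compared by the difference of median log2 signals, with signals under 1000 set to 1000, and a difference of at least 1 (2-fold) was called higher or lower as a rule of size. Where a median lay under 1000 the difference is a lower bound. In rd1 at 5 weeks, arrays A5 and A6 were near copies (r = 0.989 over the probe sets, where the next closest of the 377 remaining pairs reached 0.764) and were averaged to 1 cell, A5/A6, leaving 27 cells.

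The MGC label was checked with 19 MGC markers. Between 12 and 18 of them were on in every adult WT, Rhod-ko and rd1 5-week cell, and 14 or 15 in rd1 P13 cells B4, A4 and B3. The 3 congenic cells had 7, 6 and 3 of them on, and rd1 P13 cells A1 and B1 had 9 and 7. Those 5 cells had 9 to 11 of 11 vascular markers on, against 0 to 3 in the other 22 cells, so 5 of the 8 P13 cells went against their label. Rlbp1, the retinaldehyde-binding protein of MGCs, was at 22 to 147 in adult WT cells MG1, MG22 and MG16. In Rhod-ko at 8 weeks, cell 7 had 6 of 13 microglia markers and 8 of 12 rod markers on, and cell 8 had 7 rod markers on. All 8 P13 cells had 5 to 9 of the 12 rod markers on, 5 to 9 in congenic FVB and 7 to 9 in rd1, against 0 to 2 in adult WT and 0 to 3 in rd1 at 5 weeks, and their part in the P13 values was not tested. Rhodopsin itself was not analysed here.

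Sox proteins are transcription factors with a high-mobility-group DNA-binding domain. Sox2 keeps neural progenitors undifferentiated and stays on in mature MGCs. Sox8 and Sox9 belong to the SoxE family, and Sox9 is needed for gliogenesis and marks mature MGCs. Sox4 and Sox11 belong to the SoxC family, which drives neuronal differentiation. Id proteins are helix-loop-helix factors without a DNA-binding region that pair with E proteins and so hold back proneural factors. They are well-known targets of bone morphogenetic protein (BMP) signalling.

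In the RefSeq annotation of build GRCm38.p6, Id1 lies at chr2:152736251-152737410, Sox2 at chr3:34649995-34652461, Id3 at chr4:136143822-136145392 and Sox9 at chr11:112782210-112787757. Id2 lies at chr12:25093799-25096092 and Sox11 at chr12:27334268-27342718, Sox4 at chr13:28948919-28953699 and Id4 at chr13:48261116-48266028, and Sox8 at chr17:25565893-25570686. Sox2 lies inside the long non-coding gene Sox2ot, at chr3:34560381-34677993. The array carried 8 probe sets for Sox4, 6 for Sox11, 3 each for Sox9, Id2 and Id4, and 1 each for Sox2, Sox8, Id1 and Id3. The highest of a gene's probe sets was taken in each cell.

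RefSeq promoter sequence was matched for 7 of the 9 members (Id1 and Sox9 were the other two). The 250 bases before the start are shown for 3 of them because their detection stood furthest apart. Sox2 differed most between conditions, Id3 was on in 26 of 27 cells and Sox11 was on in 0. Capitals mark 3 motifs searched on both strands, the E box CANNTG (bound by the E proteins that Id proteins capture), the CCAAT box CCAAT and the GC box GGGCGG.
Sox2, chr3:34649745-34649994, plus strand: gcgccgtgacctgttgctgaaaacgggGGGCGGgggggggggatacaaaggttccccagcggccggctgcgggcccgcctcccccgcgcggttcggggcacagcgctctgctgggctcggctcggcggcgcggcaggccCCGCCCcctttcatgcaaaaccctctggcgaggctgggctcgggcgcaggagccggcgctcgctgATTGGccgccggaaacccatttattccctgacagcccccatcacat
Id3, chr4:136143572-136143821, plus strand: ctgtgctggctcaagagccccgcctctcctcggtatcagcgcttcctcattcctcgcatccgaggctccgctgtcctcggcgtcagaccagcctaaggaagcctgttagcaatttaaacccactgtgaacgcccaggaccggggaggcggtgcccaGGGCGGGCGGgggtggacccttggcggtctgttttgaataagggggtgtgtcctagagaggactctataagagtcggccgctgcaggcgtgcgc
Sox11, chr12:27342719-27342968, minus strand: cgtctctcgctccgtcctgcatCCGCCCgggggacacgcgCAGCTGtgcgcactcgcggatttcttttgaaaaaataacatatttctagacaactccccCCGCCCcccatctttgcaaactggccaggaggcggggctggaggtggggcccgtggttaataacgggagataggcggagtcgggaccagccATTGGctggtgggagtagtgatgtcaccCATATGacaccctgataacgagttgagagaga
The Sox2 window held a CCAAT box 46 bases before the start and 2 GC boxes. The Id3 window held 2 overlapping GC boxes, 94 and 90 bases before the start. The Sox11 window held 2 E boxes, 1 CCAAT box and 2 GC boxes. Over the 7 matched members, 6 held a GC box, 5 a CCAAT box and 4 an E box. Over all 32851 promoters in the table, 32.7% held a GC box, 33.8% a CCAAT box and 66.2% an E box of the same letters. The letters ACAAT, one form of the core that Sox proteins bind, were in 0 of the 7 windows and in 27.7% of all promoters. Other forms were not searched, and the Sox2 window holds one of them, ACAAAG. The TATA box TATAAA was in 0 of 7 and in 12.4%. The 7 windows had a GC content of 50.8% (Sox4) to 75.6% (Id4), against a median of 52.4% over all promoters. The part of base content in these motif counts was not tested. A letter match is a description of these windows and not a binding site.

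Sox2 was on in 20 of 27 cells (74.1%, exact Clopper-Pearson 95% interval 53.7 to 88.9%, counting error only). In adult WT its signal was 64438 in MG1, 62414 in MG16, 37954 in MG22, 41068 in MG15 and 11052 in MG3. In Rhod-ko at 8 weeks it was 1500 in cell 2, 4089 in cell 1, 4760 in cell 3, 7087 in cell 7 and 4720 in cell 8. In Rhod-ko at 25 weeks it was 12827 in A1, 16489 in A2, 32219 in A3, 20620 in A4 and 21900 in A5. The 5 cells at 8 weeks were thus all below the lowest adult WT cell and below the lowest cell at 25 weeks, and no other member was both called and free of overlap in any of the 6 comparisons. The cells at 25 weeks overlapped adult WT.

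The rd1 cells at 5 weeks had Sox2 at 16038 in A1, 44374 in A5/A6, 61522 in B1 and 5314 in A8, which overlapped the adult WT range. At P13 the cells were divided. Sox2 was at 30284 in rd1 B4 and 22014 in B3, at 1821 in A4, and at 6.7 and 20.7 in A1 and B1. The congenic cells were at 15.2 (A3), 2.8 (A4) and 955 (A5). The 5 P13 cells under 1000 were the 5 with 9 to 11 vascular markers on.

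**Figure D1:**
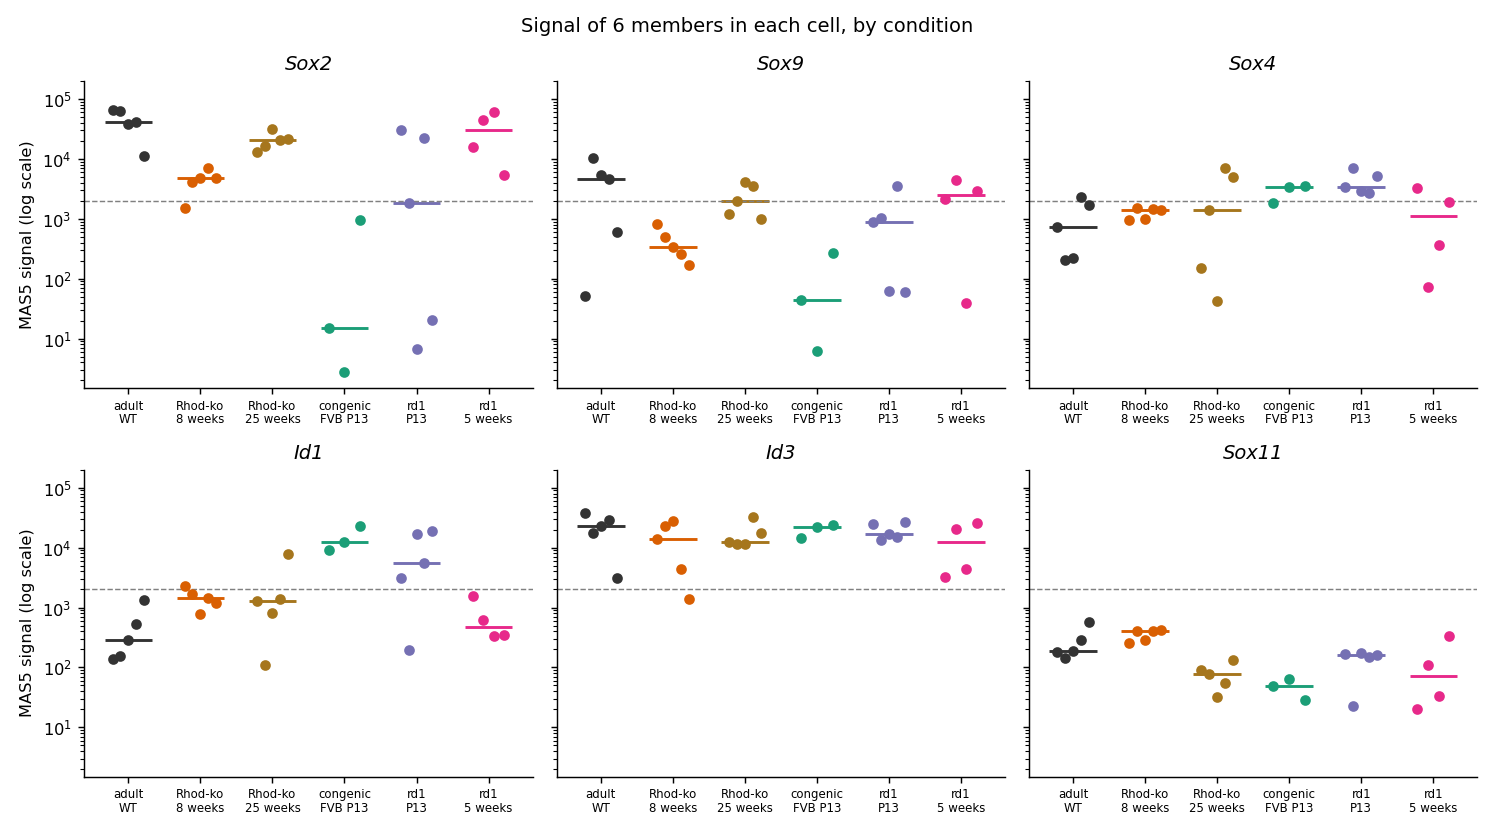
MAS5 signal (log axis) of Sox2, Sox9, Sox4, Id1, Id3 and Sox11 in each of 27 cells, by condition; points are cells, short lines are medians and the dashed line is the signal of 2000 at which a gene was called on. Sox2 in the 5 Rhod-ko cells at 8 weeks (1500 to 7087) lay below all adult WT cells (11052 to 64438), and Sox11 was at most 580 in every cell.

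In Rhod-ko at 8 weeks against adult WT, the median of Sox2 was 8.7-fold lower (4720 against 41068, a log2 difference of -3.12). Over all genes 5.12% were at least 2-fold lower, and 0.561% were both lower by that rule and without overlap of cells. The separation held after quantile normalization (at most 9943 against at least 12229) and after scaling each array to the same 90th percentile (at most 8370 against at least 14896). Sox9 was the only other member called lower, and 0 of 9 members were called higher, against 6.17% of all genes. The median difference of the 9 members was 0, as it was over all genes. The 100 brightest probe sets held 22.2 to 35.7% of the signal in these 5 cells against 13.4 to 24.6% in adult WT, and the part of this in the Sox2 difference was not tested. Cell 7 carried rod and microglia markers and cell 8 rod markers, and without these cells the Sox2 difference was -3.33. Cells 1 and 3, which were kept, had 3 of 12 rod markers on each.

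From 8 to 25 weeks in Rhod-ko the median of Sox2 was 4.37-fold higher (20620 against 4720, log2 difference 2.13). It was the 1 member called higher, against 7.33% of all genes, and 1.19% of all genes were higher without overlap of cells. No member was called lower, against 4.16% of all genes. The Sox2 difference was 2.18 after quantile normalization and 1.64 after 90th-percentile scaling. Against adult WT, Sox2 at 25 weeks was 0.99 lower on the log2 scale, just inside the 2-fold line. Under 90th-percentile scaling this became 2.28 lower, and the 90th percentile of the deposited signals was 1598 to 2102 in these 5 cells against 404 to 1063 in adult WT.

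Sox2ot was on in 4 cells by its own probe set, MG22 (11656) and MG15 (2568) of adult WT and A1 (6365) and A4 (3439) of Rhod-ko at 25 weeks. All 4 had Sox2 on. It was at most 282 in Rhod-ko at 8 weeks, 32.2 in congenic FVB and 61.4 in rd1 P13. In rd1 at 5 weeks it was at most 120, although Sox2 was on in 4 of 4 cells there.

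Sox9 was on in 9 cells, and all 9 also had Sox2 on, whereas 11 cells had Sox2 without Sox9. In adult WT it was at 10344 in MG16, 5408 in MG22, 4648 in MG15, 602 in MG3 and 50.9 in MG1. In Rhod-ko at 8 weeks it was off in 5 of 5 cells (806 in cell 2, 505 in cell 1, 336 in cell 3, 262 in cell 7 and 166 in cell 8). The 8-week cells overlapped adult WT, because MG1 and MG3 had Sox9 off too. The median was at least 2.22 lower on the log2 scale than in adult WT, and at least 1.11 lower without MG16.

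At 25 weeks Sox9 was on in A3 (4152) and A4 (3518) and at 1950, 1189 and 990 in A2, A1 and A5. It was the 1 member called lower than adult WT at 25 weeks (log2 difference -1.25), against 3.7% of all genes, and 0 members were called higher, against 7.9%. Leaving out 1 cell ended that call in 5 cases, MG16 or MG22 (-0.15 each), MG15 (-0.25), and A1 or A5 of Rhod-ko (-0.83 each). The Sox9 difference from 8 to 25 weeks was at least 0.96 and was not called.

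In rd1 Sox9 was on in B3 (3493) of 5 cells at P13 and in 3 of 4 cells at 5 weeks, A5/A6 (4507), A8 (2955) and A1 (2130), with B1 at 39.2. The congenic cells were at 43.8, 6.3 and 270. At 5 weeks the median was at least 1.33 higher than at P13 and 0.89 lower than adult WT, which was not called. The direction of the last value turned to 0.22 higher without MG22 or MG16 and to 0.11 higher without MG15.

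Sox8 was on in 2 cells, MG1 (5081) and MG3 (2307). These were the 2 adult WT cells in which Sox9 was off, and no cell had both on. In the other 25 cells Sox8 was between 14.3 and 1604. No comparison called it.

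Among the Id genes, Id3 was on in 26 of 27 cells (96.3%, interval 81.0 to 99.9%). The exception was cell 8 of Rhod-ko at 8 weeks (1372). In adult WT it was at 37404 in MG1, 17601 in MG16, 23392 in MG22, 29430 in MG15 and 3106 in MG3, so MG3 stood well below the other 4. At 8 weeks the other 4 Rhod-ko cells were at 13970, 23288, 28366 and 4409, and at 25 weeks the 5 cells were between 11300 and 33001. The congenic cells were at 14510 to 23950 and the rd1 P13 cells at 13545 to 26765. Id3 was therefore high with or without the vascular markers, and every condition overlapped every other.

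In rd1 at 5 weeks Id3 was at 3254 in A1, 20600 in A5/A6, 4394 in B1 and 25995 in A8. Its median was 1.30 lower on the log2 scale than in adult WT. It was the 1 member called lower there, against 4.25% of all genes, with 0 called higher against 6.35%. The 4 cells lay in an upper and a lower pair, so the median fell between them. The call was lost without A1 or without B1 (-0.18 each) and with A5 and A6 counted as 2 cells (-0.30).

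Id1 was on in 9 cells. The congenic cells had it at 9138 (A3), 12577 (A4) and 23083 (A5). The rd1 P13 cells had it at 16572 (A1), 18914 (B1), 5528 (B3), 3078 (B4) and 195 (A4), and the pair with most vascular markers, A1 and B1, were the highest of them. The remaining cells with Id1 on were A5 of Rhod-ko at 25 weeks (7749) and cell 2 of Rhod-ko at 8 weeks (2320). Adult WT had it on in 0 of 5 cells (at most 1356, interval 0 to 52.2%) and rd1 at 5 weeks in 0 of 4 (at most 1557, interval 0 to 60.2%).

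The 5 cells with 9 to 11 vascular markers on had the 5 highest Id1 signals, between 9138 and 23083, and no other cell exceeded 7749. The same 5 cells had Sox2 at 955 or less, against 1500 or more in the other 22. Sox17, a Sox gene of vascular endothelium, was on in these 5 cells (6387 to 16965) and at most 929 elsewhere. Sox18, also a gene of endothelium, was at 3.8 to 104 in the same 5 cells. Its highest signal was 873, in cell 7 of Rhod-ko at 8 weeks, so no cell had it on. The vascular markers themselves set these 5 cells apart. Of the 11, Kdr was on in 3 of the 5 and in 18 of the 22, and Flt1 in 5 of the 5 and in 6 of the 22. Over the 27 cells Id1 had a Pearson r of -0.65 with Sox2 and 0.22 with Id3.

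**Figure D2:**
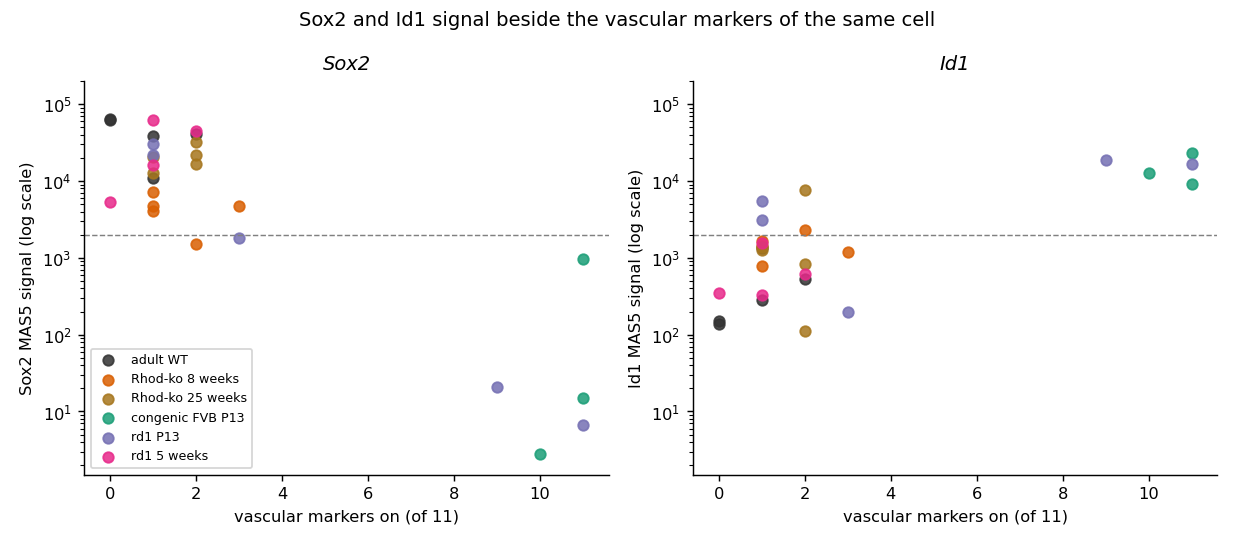
MAS5 signal (log axis) of Sox2 and of Id1 in each of 27 cells against the number of 11 vascular markers on in the same cell; colours are conditions and the dashed line is the signal of 2000. The 5 cells with 9 to 11 markers on, all from P13, had Sox2 at 955 or less and Id1 at 9138 or more.

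In rd1 against congenic FVB at P13, Id1 was the 1 member called lower (5528 against 12577, log2 difference -1.19), against 6.41% of all genes, and 0 were called higher, against 4.79%. With the vascular-marker cells A1 and B1 of rd1 left out, the Id1 difference was -2.03 and Sox2 was at least 4.46 higher, against at least 0.86 with them. Leaving out B4 or A4 (-0.39 each), B3 (-0.82) or congenic A5 (-0.96) ended the Id1 call. All 3 congenic cells carried the vascular markers, so no strain-matched cell without them entered this comparison, and genotype and cell type cannot be told apart.

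From P13 to 5 weeks in rd1, Sox2 (log2 difference 3.87) and Sox9 (at least 1.33) were called higher, against 4.12% of all genes. Id1 (at least 2.47 lower) and Sox4 (1.31 lower) were called lower, against 5.78%. Cells A1 and B1 at P13 decided the Sox2 value, which was 0.28 without them, while Id1 stayed at least 1.62 lower and Sox9 was 1.27 higher. This was the comparison with the most members called, 4 of 9, and it sets P13 retina against 5 weeks in the same strain.

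Id2 was on in 1 cell, MG16 (2593), on 1 of its 3 probe sets. In the other 26 cells it was between 31.3 and 1565. Id4 was on in 3 cells, MG15 (18255) and MG3 (5542) of adult WT and cell 7 of Rhod-ko at 8 weeks (2021). Its probe sets disagreed, since 1450928_at was on in MG15 alone and 1423260_at in MG3 and cell 7. Outside those 3 cells Id4 reached at most 1320. Neither gene was called in any of the 6 comparisons.

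The neuronal differentiation members differed from each other. Sox11 was on in 0 of 27 cells on any of 6 probe sets, with a highest signal of 580 in MG3 (interval 0 to 12.8%). Sox4 was on in 11. At P13 it was on in 5 of 5 rd1 cells, at 3402 in B4, 7082 in A4, 2887 in A1, 2735 in B3 and 5115 in B1, and in congenic A4 (3400) and A5 (3565), with A3 at 1839. The highest of them, rd1 A4, also had 4 of 9 ganglion cell, 4 of 7 bipolar, 3 of 8 cone and 8 of 12 rod markers on, and their part in its Sox4 signal was not tested. In adult WT it was on in MG15 (2326) and at 206 to 1694 in the other 4 cells. In Rhod-ko at 8 weeks it was at 957 to 1540 and on in none of 5 cells.

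At 25 weeks Sox4 was on in A4 (6949) and A5 (5070) and off in A1 (148), A2 (1405) and A3 (41.9). In rd1 at 5 weeks it was on in A1 (3284), and at 1894, 367 and 71.8 in A8, B1 and A5/A6. The cells at 5 weeks overlapped those at P13 through A1, in which 4 of 9 ganglion cell markers, 4 of 8 amacrine, 4 of 7 bipolar and 5 of 8 cone markers were on too. The lower call at 5 weeks was lost without A5/A6 or without B1 (-0.85 each), with 1 probe set per gene (-0.99), after quantile normalization (-0.72) and after 90th-percentile scaling (-0.48).

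The Sox4 probe sets marked different cells. Probe set 1433575_at was on in 9 cells, namely MG15, A4 and A5 of Rhod-ko at 25 weeks, congenic A4 and A5, rd1 P13 A1, B3 and B1, and rd1 5-week A1. Probe sets 1419155_a_at and 1419156_at were on in 3 cells, rd1 P13 B4 and A4 and rd1 5-week A1. In B4 and A4 1433575_at was at 465 and 1.4. Only rd1 5-week A1 was on by both. The RefSeq gene Gm46405, a long non-coding gene, overlaps the Sox4 locus, and which transcript each probe set reads was not tested.

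**Figure D3:**
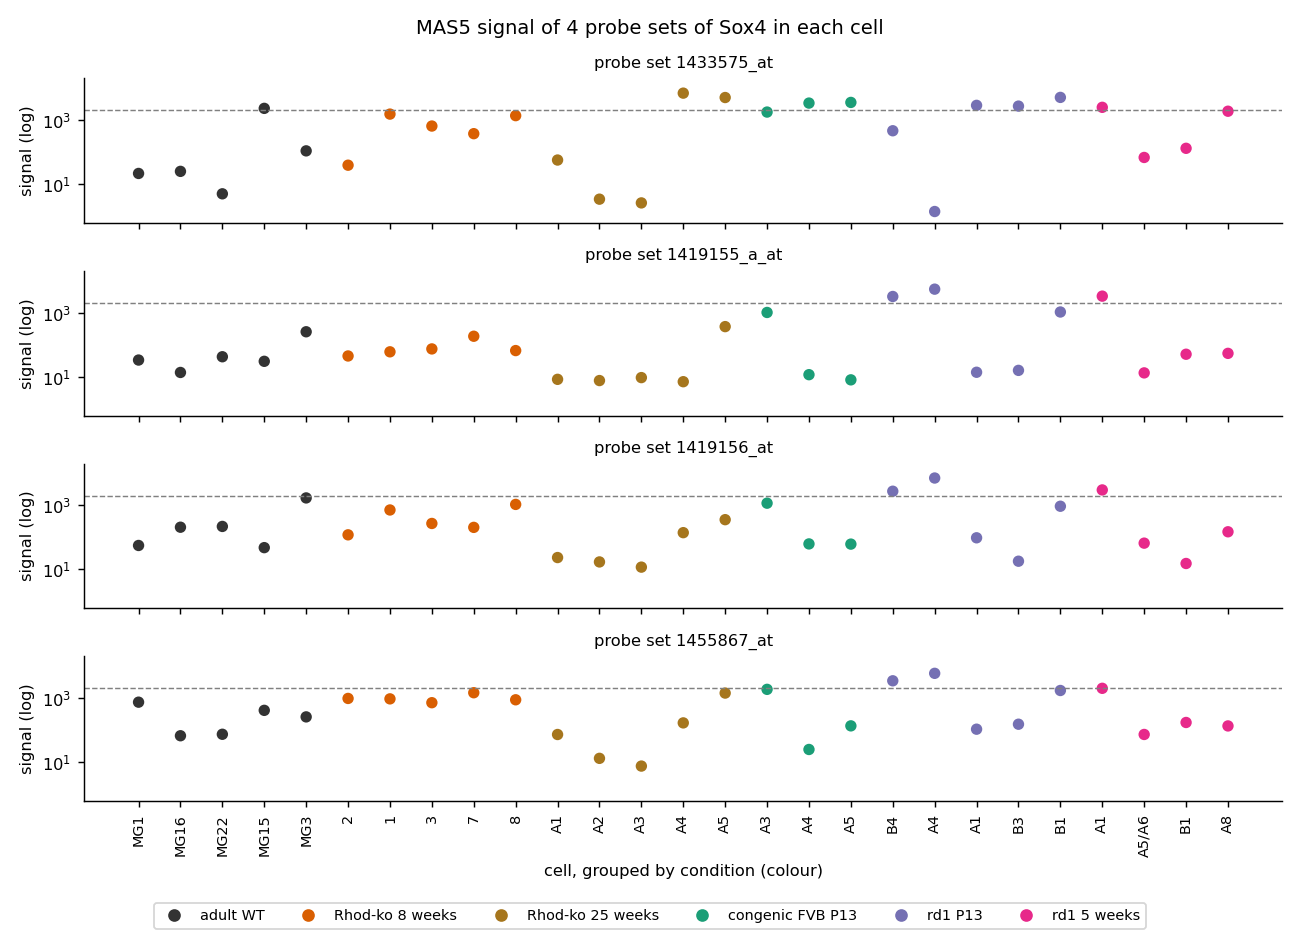
MAS5 signal (log axis) of 4 Sox4 probe sets in each of 27 cells, with cells in order of condition and coloured by it; the dashed line is the signal of 2000. Probe set 1433575_at was on in 9 cells and 1419155_a_at and 1419156_at in 3, with rd1 5-week A1 common to them.

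Set side by side, between 1 and 4 of the 7 glial members and 0 or 1 of the 2 neuronal differentiation members were on in each cell. The 5 rd1 P13 cells had 1 neuronal member on each, and the 5 Rhod-ko cells at 8 weeks had none. Of the 11 cells with Sox4 on, 6 also had Sox2 on and 7 had Id1 on. Of the 20 cells with Sox2 on, 14 had Sox4 off.

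**Figure D4:**
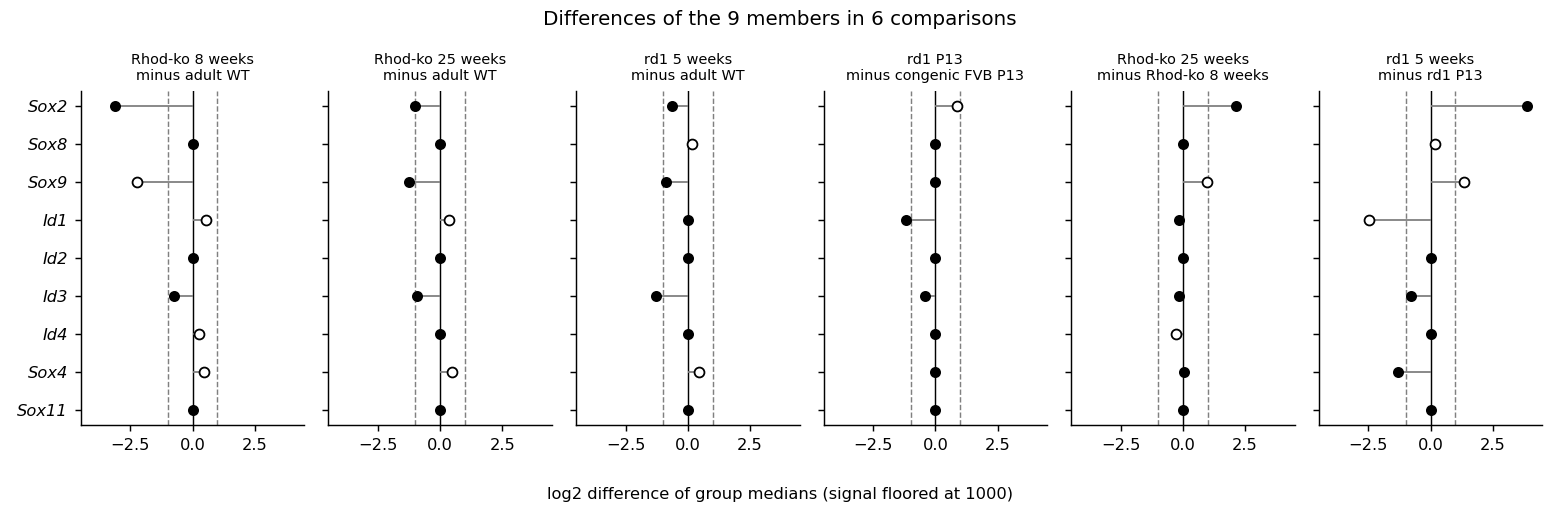
Difference of median log2 signals for the 9 members in 6 comparisons; dashed lines mark a 2-fold difference, open points are lower bounds because 1 median lay under 1000, and points at 0 include members with both medians under 1000. Sox2 had the largest difference of the 9 in 3 panels, -3.12 and 2.13 in Rhod-ko and 3.87 in rd1.

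The genes whose signals ran most like a member's over the 27 cells were found among 5225 genes on in at least 5 cells. All points of such a correlation share the array, the amplification and the mix of conditions, and r is a description. Sox2 ran closest to Gpr37 (r = 0.868), a receptor on the list of MGC markers, the membrane glycoprotein gene Gpm6b (0.864) and the acyl-CoA synthetase Acsl3 (0.857). Sox9 ranked 80th for Sox2, at r = 0.581. Sox9 ran closest to Slitrk2 (0.774), a neuronal transmembrane protein, Mthfd1 (0.731), an enzyme of folate metabolism, and the disintegrin family member Adam23 (0.731).

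Id1 ran closest to the adrenomedullin receptor subunit Ramp2 (0.907), the angiopoietin receptor Tek (0.875) and Jcad (0.874), a gene of endothelial cell junctions. Tek is on the vascular marker list. Sox4 ran closest to Xbp1 (0.821), a factor of the unfolded protein response, Dennd5b (0.736) and the proteasome subunit Psma3 (0.672).

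Partners and pathway genes of the members were counted from lists written with earlier results of these data known. Among 14 other Sox genes, Sox6 was the 1 called lower than adult WT in Rhod-ko at 8 weeks, at 25 weeks and in rd1 at 5 weeks. Of all genes 5.12%, 3.7% and 4.25% were lower. The adult WT cells had Sox6 at 107 to 4876 (median 3477). Its highest signal was 491, 367 and 233 in the 3 conditions, so cells overlapped each time, and the comparisons share the adult WT cells. Sox7 and Sox17, genes of endothelium, were called lower in rd1 P13 than in congenic FVB (at least 1.81 and 2.72), against 6.41% of all genes. Sox13 was at least 1.67 lower in rd1 at 5 weeks than at P13, against 5.78% of all genes.

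The E proteins that Id proteins bind are Tcf3, Tcf4 and Tcf12. Against adult WT in Rhod-ko at 8 weeks, Tcf4 was 2.37 lower and Tcf12 at least 2.46 lower on the log2 scale. At 25 weeks they were 1.15 and 1.40 lower. Of all genes 5.12% and 3.7% were lower. In rd1 at 5 weeks 1 of 3 was called, Tcf12 (1.98 lower), against 4.25% of all genes. Adult WT cells were at 352 to 24346 for Tcf4 and 168 to 12900 for Tcf12, so cells overlapped each time. The highest Tcf12 signal in Rhod-ko at 8 weeks was 14348. In rd1 P13 Tcf12 was at least 1.47 lower than in congenic FVB, with overlap, against 6.41% of all genes. From 8 to 25 weeks Tcf4 was 1.22 higher and Tcf12 at least 1.06 higher, against 7.33% of all genes.

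Of 11 measured proneural and neurogenic factors, which E proteins pair with, 0 were called in 5 of the 6 comparisons. The exception was Neurod1, a factor of photoreceptor and amacrine development, whose P13 median was at least 1.42 lower in rd1. Of all genes 6.41% were lower there. In each comparison 8 to 10 of the 11 had both medians under 1000, so few of them could be called. Of all genes 4.12 to 7.9% were called higher and 3.7 to 6.41% lower over the 6 comparisons. Neurod1 and Neurod4 were each on in 7 of 27 cells. Of 6 Hes and Hey repressors, which act below Notch, Hes1 was the 1 called lower in each comparison with adult WT. It was at least 2.31 lower in Rhod-ko at 8 weeks, 1.66 at 25 weeks and at least 2.31 in rd1 at 5 weeks. Of all genes 5.12%, 3.7% and 4.25% were lower. Hey2 was higher at 25 weeks (at least 1.61), where its cells were at 3.4 to 8157. It was also higher in rd1 at 5 weeks (at least 3.58), where its 4 cells were at 6109 to 16105. Adult WT cells had Hey2 at 19 to 6592, so cells overlapped in both. Of all genes 7.9% and 6.35% were higher.

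BMP signalling is the usual inducer of Id genes. Of 6 measured ligands Bmp5 was called lower than adult WT in all 3 comparisons with it (each at least 1.36). Of 9 inhibitors Nog, which encodes the BMP antagonist noggin, was too (each at least 2.01). Of all genes 5.12%, 3.7% and 4.25% were lower. Adult WT cells were at 38.8 to 17611 for Bmp5 and 42.1 to 15639 for Nog, so cells overlapped each time. The inhibitor Smurf2 was at least 1.11 higher in rd1 at 5 weeks than in adult WT, against 6.35% of all genes, with overlap. Of 4 BMP Smads, the transducers of the signal, 3 were lower in Rhod-ko at 8 weeks (5.12% of all genes), 2 at 25 weeks (3.7%) and 3 in rd1 at 5 weeks (4.25%), and the 3 comparisons share the 5 adult WT cells. Smad1 was at least 2.66 lower in each, and Smad5 was 2.54 lower at 8 weeks and at least 2.83 lower in the other 2. Adult WT cells were at 196 to 10700 for Smad1 and 1109 to 15147 for Smad5, so cells overlapped each time. From 8 to 25 weeks Smad4 was 1.27 higher, against 7.33% of all genes. In rd1 it was 1.66 lower at 5 weeks than at P13, against 5.78%. Id1 and Id3 are read beside these as values only.

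Of 8 BMP receptors, 4 were lower in rd1 P13 than in congenic FVB, against 6.41% of all genes. Eng (at least 4.05) and Acvrl1 (at least 3.05) are co-receptor and receptor of endothelial cells, and Eng was at 8799 to 22442 in the congenic cells, 13302 in rd1 B1 and 12758 in A1, against at most 833 in the other 22 cells. Bmpr2, the type II receptor, was at least 3.33 lower in Rhod-ko at 8 weeks than in adult WT (5.12% of all genes). At 25 weeks it was 1.38 lower (3.7%). Adult WT cells had it at 138 (MG1) to 22815, so cells overlapped in both. From 8 to 25 weeks Bmpr2 was at least 1.95 higher (7.33%). Bmpr1a was at least 1.28 higher in rd1 at 5 weeks than in adult WT (6.35%) and than at P13 (4.12%).

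Nuclear factor I genes promote gliogenesis, and Sox9 induces Nfia in the spinal cord of the chick and mouse. From 8 to 25 weeks in Rhod-ko 4 of 4 were called higher, against 7.33% of all genes, among them Nfic (2.31), Nfix (1.84) and Nfia (1.03). Of these 4, 0 had both medians under 1000, while the share over all genes includes genes that could not be called for that reason. Over genes above the floor the median difference was 0.33, and -0.34 after 90th-percentile scaling. Cells overlapped for all but Nfic, and 1.19% of all genes were higher without overlap. Against adult WT, Nfia was lower in Rhod-ko at 8 weeks (2.95) and 25 weeks (1.92) and in rd1 at 5 weeks (1.04). Nfib was higher in the same 3 comparisons, by at least 1.08, 2.45 and 3.10. Of all genes 5.12%, 3.7% and 4.25% were lower and 6.17%, 7.9% and 6.35% higher. Adult WT cells were at 642 to 25193 for Nfia and 319 to 24242 for Nfib, so cells overlapped each time.

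Of 12 neuronal differentiation genes 5 were called higher than adult WT in Rhod-ko at 25 weeks, against 7.9% of all genes, among them the synaptic Snap25 (at least 2.76) and the neurofilament Nefl (at least 2.62). In rd1 at 5 weeks 4 were higher, against 6.35% of all genes, with the synaptic vesicle protein Syt1 at least 4.68 higher. Its rd1 cells were at 14733 to 36760 and its adult WT cells at 34 to 23425, so they overlapped. In Rhod-ko at 8 weeks 0 were higher, against 6.17%, and 1 was lower, against 5.12%. It was Ncam1, a neural cell adhesion molecule (1.36 lower). In the same 3 comparisons 0 of the 2 neuronal differentiation members were called higher. These cells had 0 to 3 of 9 ganglion cell markers at 25 weeks and 1 to 4 in rd1 at 5 weeks on, against 0 to 2 in adult WT. Nefl is on that marker list as well as among the 12 genes, so the 2 lists are not independent. Of 7 bipolar markers 2 to 3 were on at 25 weeks and 0 to 4 in rd1 at 5 weeks, against 0 to 1 in adult WT. Of 8 cone markers 0 to 2 and 0 to 5 were on, against 0 in adult WT, and of 8 amacrine markers 0 to 4 in both, against 0 to 1. The part of other cells' RNA in these values was not tested.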

How the data were processed

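MAS5 signal intensities of single MGCs on Affymetrix mouse genome arrays, 28 arrays of 45101 probe sets, were deposited by the authors, who amplified the cDNA of each cell (35 cycles), hybridized it and scaled each array in MAS5, as named in the submitters' processing notes. The 2% trimmed mean was 500.0 on every array. Depth has no count here, and the number of arrays limits precision; amplification noise is part of every value.

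Of the probe sets, 34958 had 1 gene symbol, 932 several and 9211 none. Those with 1 symbol gave 18194 genes, and 34754 of them were matched to RefSeq by Entrez identifier. The highest probe set per gene was taken in each cell. A gene was on at 2000, one of the thresholds in the study's methods. Medians of log2 signal floored at 1000 were compared. This step was tested on simulated data with normally distributed noise and a large shift in genes well above the floor. Real signals were often on in some cells and off in others, so the simulation does not give the rate of false calls here. Groups followed the sample labels. No test between conditions was run because no animal was named. Named genes were the 9 members, up to 2 genes of each list with the largest difference past 2-fold in a comparison, the 3 genes most like each member on in 5 to 22 cells, and markers. Nfia and Nfib were also given in comparisons where they were not among those 2, and Sox18 was given beside Sox17. The members and lists were chosen with earlier results of these data known. Alternatives were other normalizations, floors, summaries, probe set rules and omitted cells. Python 3.11.15, pandas 2.3.3, NumPy 2.4.6 and SciPy 1.17.1 were used.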

Additional observations from a re-analysis of the deposited data

Results flagged for a closer look

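Among the 9 members in the 5 conditions of 4 or 5 cells, 45 groups of cells were examined for a single cell standing apart by Dixon's ratio, and 12 had no spread above the floor. Of the groups, 9 were marked. Chance marks about 1 in 20 groups of unfloored values, but signals were floored at 1000, and in 7 of the 9 only 1 cell lay above the floor, which gives the highest ratio by construction, so that rate does not apply to them. In 3 of the 9 marked groups the cell was on, and of these 3 only the Id2 group was among the 7. Id1 was at 7749 in A5 of Rhod-ko at 25 weeks, where the other 4 cells were at most 1384. Sox9 was at 3493 in B3 of rd1 P13, and Id2 at 2593 in MG16 of adult WT. The remaining marks were on cells under the signal of 2000. Sox8 was at 1604 in A3 of Rhod-ko at 25 weeks and at 1132 in B4 of rd1 P13. Id1 was at 1356 in MG3 of adult WT and at 1557 in A1 of rd1 at 5 weeks. Id2 was at 1380 in A1 of Rhod-ko at 25 weeks and at 1565 in B1 of rd1 P13.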

How the results depend on the processing

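No called difference of a member changed sign under any alternative, and the counts of members called moved as follows. The share of all genes called under each setting is not given here. These counts, and those with cells left out, therefore describe the members alone and cannot be set against a background. With a floor of 500, 2 members were higher in Rhod-ko at 8 weeks than adult WT, 1 was higher at 25 weeks, 1 in rd1 at 5 weeks and 1 in rd1 P13 against congenic FVB, and from 8 to 25 weeks 2 were higher and 1 lower. With a floor of 2000, 1 was higher and 1 lower from P13 to 5 weeks in rd1, where Sox9 (0.33) and Sox4 (-0.77) were no longer called. After quantile normalization 2 were lower at 25 weeks than adult WT. After 90th-percentile scaling 4 were lower at 25 weeks and 3 in rd1 at 5 weeks, and 1 was lower from P13 to 5 weeks. This scaling moved the median over genes above the floor from 0.61 to -0.42 at 25 weeks, while the median of all genes stayed 0. With group means 1 was higher in rd1 P13, 2 from 8 to 25 weeks and 1 from P13 to 5 weeks, and the calls of Sox9 at 25 weeks (-0.59), Id3 in rd1 at 5 weeks (-0.86) and Sox9 from P13 to 5 weeks (0.83) were lost. With 1 probe set per gene 1 was lower from P13 to 5 weeks. With A5 and A6 as 2 cells 0 were lower in rd1 at 5 weeks than adult WT. With congenic FVB as control for rd1 at 5 weeks 2 were higher and 3 lower. Without rd1 P13 cells A1 and B1 together, 1 was higher against congenic FVB and 1 from P13 to 5 weeks. The omission of cells 7 and 8 of Rhod-ko at 8 weeks, chosen after seeing the data, left 0 higher and 2 lower against adult WT.

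Leaving out each cell in turn gave 2 to 3 members lower at 8 weeks, 0 to 1 higher and 0 to 3 lower at 25 weeks, 0 to 3 lower in rd1 at 5 weeks, 0 to 1 higher and 0 to 1 lower in rd1 P13, 1 to 2 higher from 8 to 25 weeks and 1 to 3 lower from P13 to 5 weeks. The third lower member at 8 weeks was Id3 without cell 1 or 3 (-1.58 each) or 2 (-1.21). At 25 weeks Sox4, 0.49 higher than adult WT and not called, turned to lower after quantile normalization (-1.08) and 90th-percentile scaling (-1.04), and became higher without A1 or A3 (1.42 each) or A2 (1.17), and Sox2 became lower without any of A3, A4, A5, MG22, MG15 or MG3 (-1.11 to -1.30). Id4 became lower at 25 weeks and in rd1 at 5 weeks without MG1, MG16 or MG22 (-1.24). In rd1 at 5 weeks Sox2 became lower without A5/A6 or B1 (-1.36). The cause of these moves was not tested. No paired analysis was possible because the cells' names mark no shared animal and no test was run. At thresholds of 500, 1000 and 10000 in place of 2000, Id1 was on in 20, 16 and 4 cells and Sox4 in 21, 18 and 0.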
